A study of Homo sapiens with 16 samples.

Results

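The regions described here are those that the authors assigned to the promoters of microRNA genes, for 4 chromatin targets in PC9 cells. A region was taken where its annotation began with Promoter, which places it within 3 kb of a transcription start, and where its gene name was MIR followed by a digit, or MIRLET7, apart from 2 names. This gave 307 of the 59617 regions in the 8 lists, against 29650 promoter regions assigned to other genes. They carried the names of 197 genes, of which 186 were microRNA genes and 11 were host transcripts, longer RNAs (names ending in HG) from which microRNAs are cut. PC9 is a human lung adenocarcinoma cell line that depends on a mutant EGFR, and the series asks how the pyruvate kinase isoform PKM2 bears on its response to the EGFR inhibitor osimertinib. The libraries used came from PC9 cells without gene editing, given osimertinib or vehicle (DMSO), and all groups share that unedited genotype. For each treatment there was 1 library against H3K4me3, 1 against H3K4me1, 1 against KDM1A and 1 against H3K9me3. How binding was assayed, and how much osimertinib was used for how long, the labels do not say.

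MicroRNAs are short RNAs that bind messenger RNAs, mostly through a seed at their 5′ end, and lower their translation or stability. Many lie inside protein-coding genes or long host transcripts and are cut from these by Drosha and Dicer, so that the start nearest to the hairpin in an annotation is often not the promoter that drives it. H3K4me3 marks active promoters, H3K4me1 marks enhancers and the edges of promoters, H3K9me3 marks silent chromatin, and KDM1A (LSD1) is a demethylase that removes methyl groups from H3K4. Each assignment of a region to a microRNA gene comes with a distance to the assigned start, and how the assignment was made is not given. Of the 186 microRNA genes, 185 were matched to a RefSeq microRNA gene, 182 of them with the same start and end, and 138 of the 186 overlapped another RefSeq gene.

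Every region was 2000 bp wide, and the lists held 13285 regions with osimertinib and 11621 with vehicle for H3K4me3, 6515 and 9761 for H3K4me1, 8882 and 4731 for KDM1A, and 2073 and 2749 for H3K9me3. Promoter regions assigned to microRNA genes numbered 93 with osimertinib and 63 with vehicle for H3K4me3, and 35 with osimertinib and 81 with vehicle for H3K4me1. They numbered 14 with osimertinib and 10 with vehicle for KDM1A, and 6 with osimertinib and 5 with vehicle for H3K9me3. Read depth is unknown. With 1 library per target and treatment there is no replicate check and no test. A 95% interval is Clopper-Pearson's and covers counting error only, and a region that was absent cannot be told apart from one under the peak caller's threshold. Set against markers, EPCAM, KRT8, KRT18, KRT19, CDH1 and EGFR each had H3K4me3 promoter regions in both lists, the markers of leukocytes, fibroblasts and endothelium had 0 in both, and so did the lung epithelial factor NKX2-1.

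The mature microRNAs below show which products the described regions lie beside, and which of them share a seed and so can bind the same sites. Sequences and positions are RefSeq's, on GRCh38.p14, written 5′ to 3′ with the seed (bases 2 to 8) in capitals. Of the 186 microRNA genes 168 were matched to mature sequences, with 239 distinct seeds, of which 16 were shared by several of the genes. Some of the strongest H3K4me3 regions in both lists lay beside these microRNAs or their host transcripts:
miR-21-5p (MIR21, chr17:59841273-59841294, plus strand): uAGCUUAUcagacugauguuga
miR-205-5p (MIR205, chr1:209432166-209432187, plus strand): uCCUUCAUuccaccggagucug
miR-31-5p (MIR31, chr9:21512158-21512178, minus strand): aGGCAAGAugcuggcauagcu
The hypoxia microRNA had regions in both H3K4me3 lists:
miR-210-3p (MIR210, chr11:568112-568133, minus strand): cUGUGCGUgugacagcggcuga
The miR-200 family, which keeps epithelial cells epithelial by binding the messages of ZEB1 and ZEB2, has a pair of seeds and comes from a cluster on chromosome 1 and another on chromosome 12:
miR-200b-3p (MIR200B, chr1:1167160-1167181, plus strand): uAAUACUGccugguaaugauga
miR-429 (MIR429, chr1:1169055-1169076, plus strand): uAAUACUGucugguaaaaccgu
miR-200c-3p (MIR200C, chr12:6963742-6963764, plus strand): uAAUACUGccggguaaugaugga
miR-200a-3p (MIR200A, chr1:1167916-1167937, plus strand): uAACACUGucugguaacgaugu
miR-141-3p (MIR141, chr12:6964155-6964176, plus strand): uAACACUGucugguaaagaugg
The clusters in MIR17HG and in the MCM7 gene share the seeds printed here, which are not all the seeds of MIR17HG, and the first is also that of a microRNA beside an H3K9me3 region:
miR-17-5p (MIR17, chr13:91350618-91350640, plus strand): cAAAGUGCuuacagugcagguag
miR-93-5p (MIR93, chr7:100093815-100093837, minus strand): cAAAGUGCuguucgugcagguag
miR-526b-3p (MIR526B, chr19:53694443-53694464, plus strand): gAAAGUGCuuccuuuuagaggc
miR-92a-3p (MIR92A1, chr13:91351361-91351382, plus strand): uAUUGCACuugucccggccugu
miR-25-3p (MIR25, chr7:100093571-100093592, minus strand): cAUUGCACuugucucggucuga
The let-7 seed was the one shared by the most genes with regions here, 3 in number, and none of those regions was in both lists of its target:
let-7d-5p (MIRLET7D, chr9:94178841-94178862, plus strand): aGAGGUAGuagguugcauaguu
let-7g-5p (MIRLET7G, chr3:52268336-52268357, minus strand): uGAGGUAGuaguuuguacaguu
let-7b-5p (MIRLET7B, chr22:46113691-46113712, plus strand): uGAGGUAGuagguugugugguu
The paired clusters on chromosomes 9 and 19 share seeds, and so do the microRNAs of the miR-193 pair:
miR-23b-3p (MIR23B, chr9:95085265-95085287, plus strand): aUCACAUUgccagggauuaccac
miR-23a-3p (MIR23A, chr19:13836595-13836615, minus strand): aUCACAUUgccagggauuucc
miR-27b-3p (MIR27B, chr9:95085505-95085525, plus strand): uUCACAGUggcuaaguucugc
miR-27a-3p (MIR27A, chr19:13836447-13836467, minus strand): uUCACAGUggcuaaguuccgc
miR-193a-3p (MIR193A, chr17:31560050-31560071, plus strand): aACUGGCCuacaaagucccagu
miR-193b-3p (MIR193B, chr16:14304017-14304038, plus strand): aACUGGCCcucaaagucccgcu
The next have known ties to the genes of this study, since miR-7 binds the EGFR message and miR-326 was reported to target PKM2 in glioma cells:
miR-7-5p (MIR7-1, chr9:83969811-83969834, minus strand): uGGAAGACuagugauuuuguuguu
miR-326 (MIR326, chr11:75335108-75335127, minus strand): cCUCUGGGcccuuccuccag
The last pair, from a cluster on the X chromosome, differ within the seed, and KDM1A regions lay near both:
miR-513c-5p (MIR513C, chrX:147189753-147189774, minus strand): uUCUCAAGgaggugucguuuau
miR-513b-5p (MIR513B, chrX:147199093-147199114, minus strand): uUCACAAGgaggugucauuuau

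The first comparison asks which microRNA genes had a promoter region with osimertinib, with vehicle, or with both. For H3K4me3, 44 of the 103 genes were in the osimertinib list only, 24 in the vehicle list only and 35 in both. Over all 9819 promoter genes of the same lists, 17.5% were in the osimertinib list only, 27.4% in the vehicle list only and 55.0% in both. Of the microRNA genes in 1 list only, 64.7% were in the osimertinib list (95% interval 52.2% to 75.9%), against 39.0% (37.6% to 40.5%) of all promoter genes in 1 list only. Where the same genes were kept and only sharing was judged by position, at an overlap of at least 1 bp, the share was 69.2% (36 genes with osimertinib only and 16 with vehicle only). It lay on the other side of 50% where every RefSeq microRNA gene and every region, of any class and any assigned gene, was counted. Of the 1912 microRNA genes in RefSeq, 62 had any H3K4me3 region within 3 kb with osimertinib only, 84 with vehicle only and 227 with both, so that the osimertinib share was 42.5% (34.3% to 50.9%). That count differs from the others in its genes, its regions and its distance at once.

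For H3K4me1 the counts leaned to vehicle under either way of counting. By name, 16 of 81 genes were in the osimertinib list only, 50 in the vehicle list only and 15 in both. Of the 3450 promoter genes of these lists 16.3% were in the osimertinib list only, 62.3% in the vehicle list only and 21.3% in both. The osimertinib share of genes in 1 list only was 24.2% (14.5% to 36.4%), close to the 20.8% (19.3% to 22.4%) of all promoter genes, and by position it was 17.8%. For KDM1A, 14 of 24 genes were in the osimertinib list only, 10 in the vehicle list only and 0 in both, which allows a shared part of up to 12.5% (3 counts of 24). Over all 1777 promoter genes 59.3% were in the osimertinib list only, 33.7% in the vehicle list only and 6.98% in both. For H3K9me3, 6 of 10 genes were in the osimertinib list only, 4 in the vehicle list only and 0 in both, which allows up to 3 of the 10. Of the 748 promoter genes 39.0% were in the osimertinib list only, 30.9% in the vehicle list only and 30.1% in both. In these 3 targets the shares of the microRNA genes lay near the background of their lists or rested on 24 genes or fewer.

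**Figure D1:**
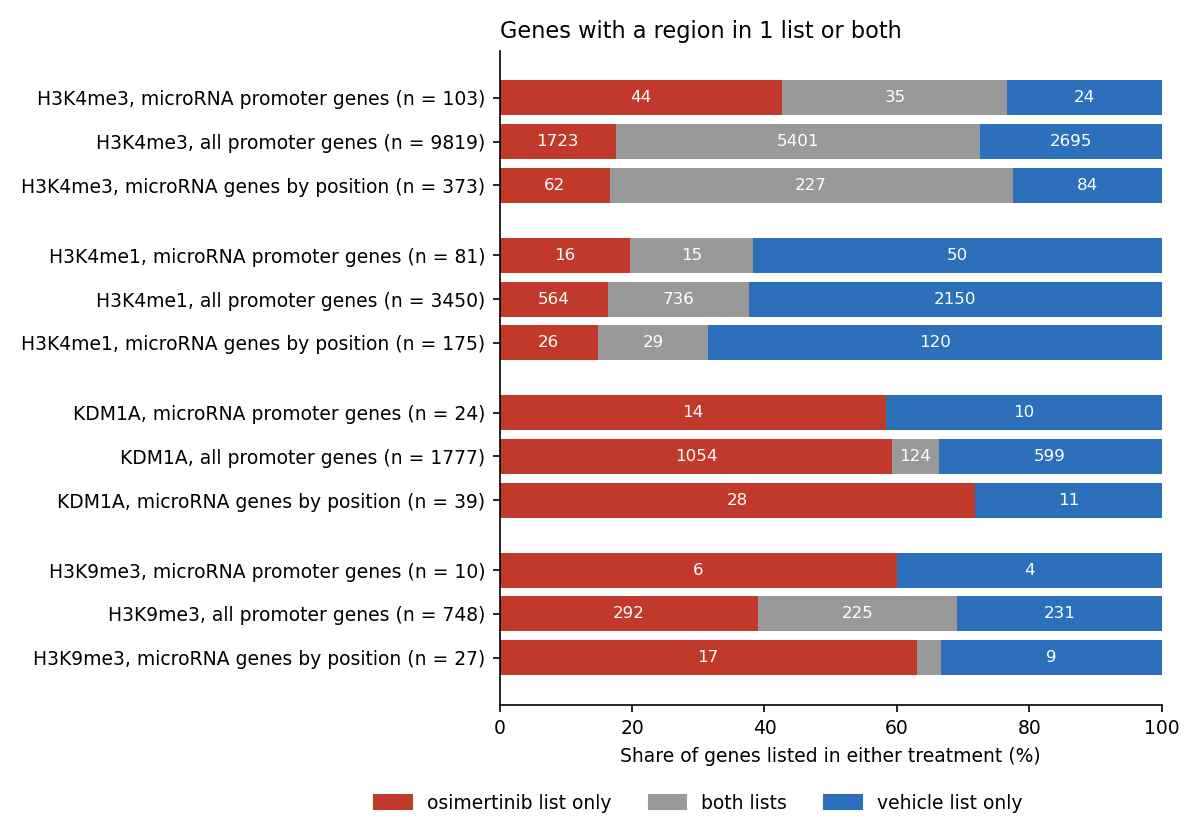
Each bar divides the genes listed in either treatment, in percent, into those in the osimertinib list only, in both lists and in the vehicle list only, with the number of genes written in the bar. The top bar of each target holds microRNA genes and host transcripts by deposited name, the middle bar all promoter genes and the lower bar RefSeq microRNA genes with any region within 3 kb, and in H3K4me3 the shared part is 35 of 103 by name and 227 of 373 by position.

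H3K4me3 was strongest at a few loci that stood high in both lists. Regions are placed on GRCh38 (hg38), and a rank counts from the highest signal of a list. The signal is the height that the authors deposited, its scale is not stated, and so it and percentiles made from it order regions within 1 list and show no change between lists. MIR21, a microRNA raised in many tumours that binds the message of the tumour suppressor PDCD4, ranked 59 with osimertinib (signal 51.2, chr17:59838715-59840714) and 62 with vehicle (signal 116, chr17:59839063-59841062). Both regions lay just upstream of the hairpin, inside the gene VMP1, and they overlapped by 1652 bp. With osimertinib a further region assigned to VMP1 lay 2515 bp from it. MIR21 was thus among the strongest 1% of regions in both libraries, at percentile 99.6 with osimertinib and 99.5 with vehicle.

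Host transcripts were also high in both H3K4me3 lists. MIR205HG, from which the epithelial microRNA miR-205 is cut, ranked 113 with osimertinib (signal 36.7, chr1:209427648-209429647) and 60 with vehicle (signal 118, chr1:209428077-209430076), and the regions overlapped by 1571 bp. MIR193BHG, the host of miR-193b and miR-365a, ranked 552 with osimertinib (signal 16.7, chr16:14301886-14303885) and 158 with vehicle (signal 79.3, chr16:14301238-14303237). MIR31HG, the host of miR-31 beside the CDKN2A locus, ranked 320 with osimertinib (signal 23.0, chr9:21558440-21560439) and 702 with vehicle (signal 35.8, chr9:21558180-21560179). All these regions covered the annotated start of their host transcript, and each pair overlapped by over 1000 bp. A weaker pair of regions, assigned to MIR205 and about as far beyond its hairpin at 1311 bp with osimertinib and 1298 bp with vehicle, ranked 5052 with osimertinib and 6490 with vehicle and overlapped by 1987 bp.

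The starts of MIR205HG and MIR31HG are unlike in sequence although regions of both H3K4me3 lists covered all 300 bases of each window. RefSeq's windows on GRCh38.p14, which run from upstream of the start into the transcript, are shown with each CG dinucleotide in capitals:
MIR205HG (chr1:209428570-209428869, plus strand): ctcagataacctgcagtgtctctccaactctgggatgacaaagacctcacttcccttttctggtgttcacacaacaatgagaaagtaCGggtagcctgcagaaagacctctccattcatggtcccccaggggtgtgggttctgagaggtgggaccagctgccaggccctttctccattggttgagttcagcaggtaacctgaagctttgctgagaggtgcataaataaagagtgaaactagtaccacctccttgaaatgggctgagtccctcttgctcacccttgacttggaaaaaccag
MIR31HG (chr9:21559749-21560048, minus strand): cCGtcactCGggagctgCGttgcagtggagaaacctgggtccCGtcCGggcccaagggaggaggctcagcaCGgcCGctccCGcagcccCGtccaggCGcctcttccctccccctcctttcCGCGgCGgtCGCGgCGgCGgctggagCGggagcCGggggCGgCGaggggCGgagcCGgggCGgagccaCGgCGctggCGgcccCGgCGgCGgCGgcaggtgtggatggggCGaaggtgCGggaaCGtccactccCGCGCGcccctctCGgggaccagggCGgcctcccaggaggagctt
The MIR205HG window held 1 CG dinucleotide and 50.3% G or C, and the MIR31HG window held 39 and 77.7%. Over the 35116 RefSeq windows of this length the median was 14 CG dinucleotides and 58.7% G or C. Fewer CG dinucleotides than in MIR205HG were held by 3.96% of the windows, and fewer than in MIR31HG by 91.3%. The letters describe the windows and say nothing of methylation, which was not measured.

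Clusters with roles in growth and stress were also in both H3K4me3 lists. MIR17HG, the MYC-driven host of the miR-17-92 cluster, ranked 2280 with osimertinib (signal 7.48, chr13:91347609-91349608) and 3203 with vehicle (signal 13.1, chr13:91347014-91349013). MIR25, in an intron of the replication gene MCM7, ranked 3824 with osimertinib and 5952 with vehicle. Both MIR25 regions covered the hairpins of miR-25, miR-93 and miR-106b, and regions assigned to MCM7 lay 1477 bp away with osimertinib and 1692 bp away with vehicle. MIR210, which hypoxia induces, ranked 2646 with osimertinib and, for the stronger of its 2 vehicle regions, 2628 with vehicle, and its host MIR210HG had a promoter region with osimertinib only, at rank 4111, that overlapped a vehicle region of MIR210HG outside promoters at rank 4009. The host of miR-34a, MIR34AHG, a target of p53, had weak regions at both treatments, at rank 9553 with osimertinib and 8436 with vehicle.

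Of the remaining strong members shared by both H3K4me3 lists, MIR762HG lies in BCL7C, a gene of a chromatin remodelling complex, and MIR3620 in ARF1, a GTPase of Golgi transport. MIR762HG ranked 2751 with osimertinib and 1741 with vehicle, and its strongest regions overlapped by 1759 bp. MIR3620 ranked 2250 with osimertinib and 2840 with vehicle, but here the regions did not overlap and lay 961 bp apart. It was the 1 gene of the 35 without a region that overlapped one of the other list. The cluster of miR-193b and miR-365a also carried MIR365A regions at rank 3058 with osimertinib and 4284 with vehicle.

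**Figure D2:**
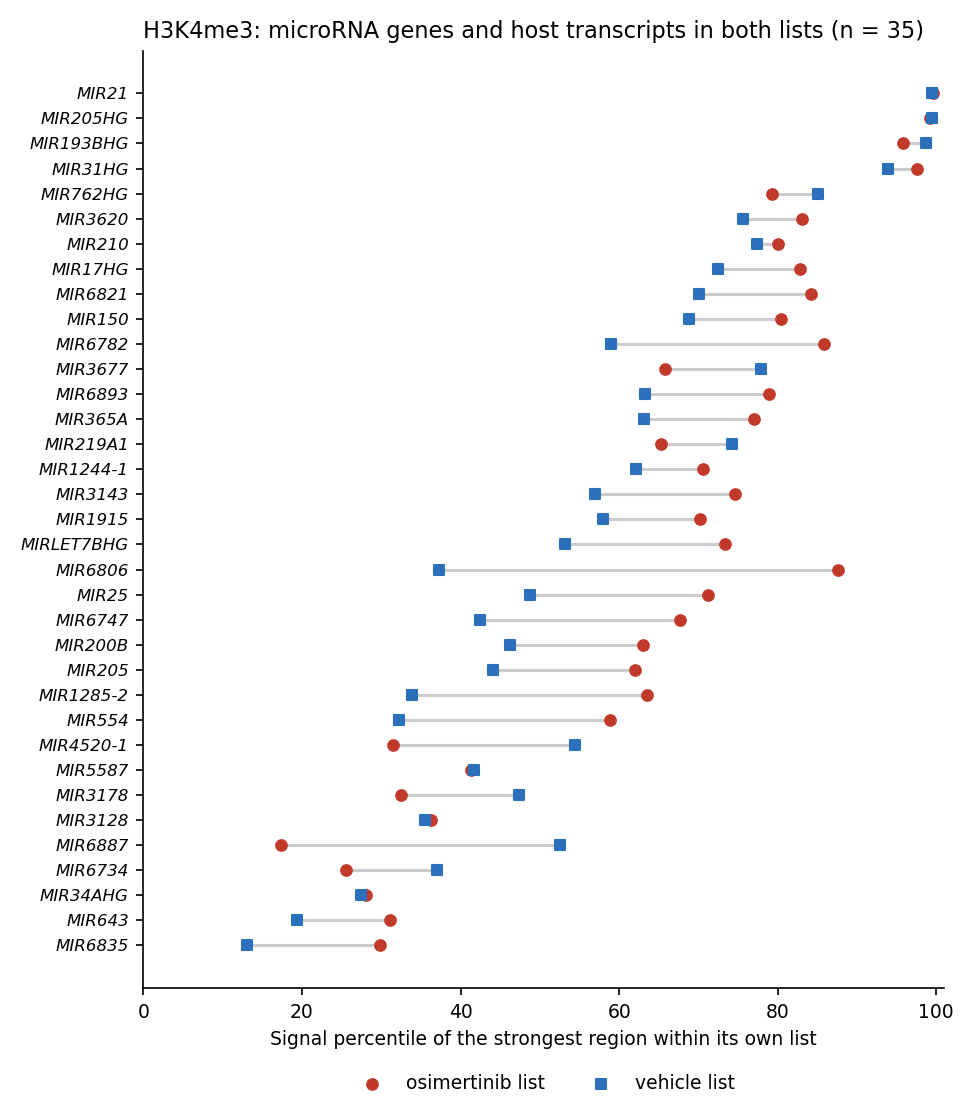
Signal percentile of the strongest H3K4me3 region of each of the 35 genes in both lists, within the osimertinib list (red circles) and within the vehicle list (blue squares); 100 is the strongest region of a list. MIR21 and MIR205HG lie above 99 in both lists, and most other genes lie between 20 and 90.

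Many H3K4me3 genes named in the osimertinib list only had a vehicle region close by under another name. Of the 44 genes, 8 had a region that overlapped a vehicle region, 19 had none overlapping but one within 3 kb, and 17 had none within 3 kb. Of the 1723 promoter genes of the osimertinib list only, 31.6% had a vehicle region within 3 kb. MIR6805, in the ribosomal protein gene RPL28, ranked 97 with osimertinib (signal 39.7, chr19:55387186-55389185), and a vehicle region assigned to RPL28 at rank 146 overlapped it by 11 bp. MIR141 ranked 507 with osimertinib (signal 17.5, chr12:6962834-6964833), covered both miR-200c and miR-141, and overlapped by 362 bp a vehicle region assigned to U47924.1 at rank 2372. That vehicle region lay 705 bp from the miR-200c hairpin and 280 bp from that of miR-141. MIR1281 ranked 1536 with osimertinib and overlapped by 1059 bp a vehicle region of EP300, the histone acetyltransferase gene, at rank 406.

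MIR6737 and MIR3188, the other strong genes of the osimertinib list only, showed the same arrangement without overlap. MIR6737 ranked 931 with osimertinib and lay 71 bp from a vehicle region of its host SLC39A1, a zinc transporter gene, at rank 666. MIR3188 ranked 1470 with osimertinib and lay 61 bp from a vehicle region assigned to the pseudogene RPL39P38 at rank 6334. With osimertinib a region of JUND, a gene of the AP-1 factor, lay 608 bp away at rank 479. MIR22HG, the host of the tumour-suppressing miR-22, ranked 9990 with osimertinib (chr17:1716892-1718891), 139 bp from a vehicle region at rank 277 that was assigned to WDR81. The vehicle region lay 765 bp from the miR-22 hairpin and the osimertinib region 2904 bp from it.

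Names also divided a cluster between the lists. The miR-23a, miR-27a and miR-24-2 hairpins lie together on chromosome 19 in MIR23AHG. The osimertinib region at rank 3037 was assigned to MIR27A, and the vehicle region at rank 4991, which overlapped it by 1588 bp, was assigned to MIR24-2. By name these counted as 1 gene in the osimertinib list only and 1 in the vehicle list only. On chromosome 1 the regions differed in place. MIR429 was named in the osimertinib list only, at rank 6638, where its region covered the hairpin, and the nearest vehicle region, assigned to MIR200B, lay 2945 bp from that hairpin. MIR200B itself ranked 4910 with osimertinib and 6245 with vehicle, and these regions overlapped by 1766 bp.

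The 17 genes with no vehicle region within 3 kb were mostly low in the osimertinib list. They included MIRLET7G in WDR82 at rank 12694, MIRLET7D at rank 11916, MIR7-1 in HNRNPK at rank 10330 and MIR16-2 in SMC4 at rank 11905. MIR146B, which inflammatory signals induce, ranked 7498, MIR193A ranked 12730 and MIR23B ranked 12333. The highest of the 17 was MIR4435-2HG, a long RNA beside the cell death gene BCL2L11, at rank 5834. In signal MIR4435-2HG, at percentile 56.1, and MIR6767, at percentile 51.3, lay in the upper 50% of the osimertinib list, and the other 15 lay below it.

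Of the 24 H3K4me3 genes in the vehicle list only, 8 overlapped an osimertinib region, 6 had one within 3 kb and 10 had none. Of the 2695 promoter genes of the vehicle list only, 20.7% had an osimertinib region within 3 kb. MIR7111, in the ribosomal protein gene RPL10A, ranked 1537 with vehicle and overlapped by 1727 bp an osimertinib region of RPL10A at rank 887. MIR4505 ranked 4014 with vehicle and overlapped an osimertinib region assigned to ELMSAN1, a gene of a histone deacetylase complex. MIR6514 ranked 4087 with vehicle and lay 276 bp from an osimertinib region of its host NXF1, an export factor of messenger RNA, at rank 1040. The vehicle list also held an NXF1 region, 649 bp from that of MIR6514 at rank 4696. The MIR7111 and MIR4505 sites thus had overlapping H3K4me3 regions at both treatments once the names were set aside, and the MIR6514 site did not. MIR935 and MIR4521 had none with osimertinib within 3 kb. MIR935, in the calcium channel subunit gene CACNG8, ranked 1732 with vehicle (signal 21.0, chr19:53979883-53981882), and MIR4521 ranked 3229. MIR203A, which restrains the stem cell factor p63 in mouse skin, ranked 5909 and MIR212 ranked 5302, again with no osimertinib region within 3 kb.

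Set over regions, 45.2% of the 93 osimertinib members (34.8% to 55.8%) overlapped a vehicle H3K4me3 region, where 64.7% of all promoter regions of that list did. In the vehicle list 68.3% of the 63 members (55.3% to 79.4%) overlapped an osimertinib region, where 60.6% of all its promoter regions did. For H3K4me1 the shares were 42.9% of 35 members with osimertinib, against 41.9% of all promoter regions, and 18.5% of 81 members with vehicle, against 18.4%. For KDM1A 0 members overlapped at either treatment, against 4.17% of all promoter regions with osimertinib and 7.7% with vehicle, and for H3K9me3 0 members overlapped, against 38.5% with osimertinib and 42.3% with vehicle. By overlap the share among the H3K4me3 members with osimertinib was below that of its list, and the H3K4me1 shares were near theirs. Within 3 kb, 76.3% of the H3K4me3 members with osimertinib had a vehicle region, against 79.3% of other promoter regions, and 84.1% of those with vehicle had an osimertinib region, against 75.2%. For H3K4me1 these shares were 57.1% with osimertinib, against 60.7%, and 27.2% with vehicle, against 30.5%, so that at this distance the osimertinib H3K4me3 members were near their list too. Members can share a host gene or cluster, so they are not independent, and no difference between shares was tested.

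**Figure D3:**
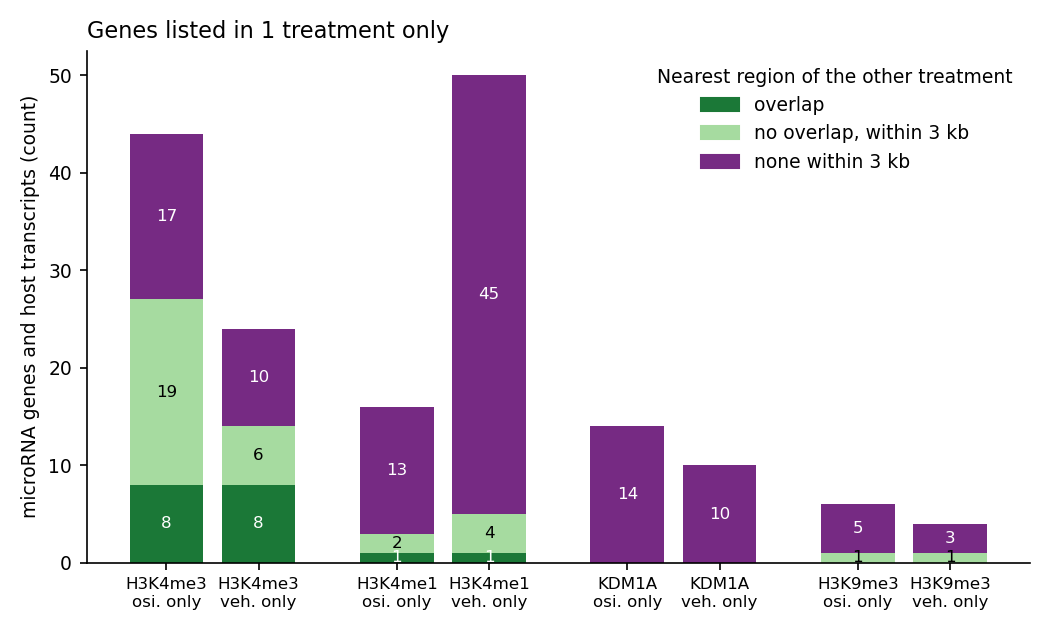
Number of genes named in the osimertinib list only or the vehicle list only, by target, divided by whether a region of the other treatment overlapped, lay within 3 kb without overlap, or was not found within 3 kb. For H3K4me3, 27 of the 44 genes in the osimertinib list only and 14 of the 24 in the vehicle list only had such a region, and for KDM1A none of the 24 had one.

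H3K4me1 was strongest beside the miR-23b, miR-27b and miR-24-1 cluster on chromosome 9, inside the gene AOPEP. MIR23B was the highest member at both treatments, at rank 868 with osimertinib (signal 4.64, chr9:95082573-95084572) and 138 with vehicle (signal 15.3, chr9:95082509-95084508), and the regions overlapped by 1936 bp. Regions along the same gene assigned to MIR2278, MIR6081 and MIR3074 were in both lists too. MIR2278 ranked 1663 with osimertinib and 1383 with vehicle, MIR6081 ranked 1738 with osimertinib and 2464 with vehicle, and MIR3074 ranked 3016 with osimertinib and 6786 with vehicle. At the MIR23B site H3K4me3 was listed with osimertinib only, near the bottom of its list at percentile 7.17.

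The other H3K4me1 members in both lists lay in introns and starts of varied genes. MIR1293, in the actin-binding gene LIMA1, ranked 1271 with osimertinib and 2628 with vehicle, and MIR1205, in PVT1 downstream of MYC, ranked 1202 with osimertinib and 3184 with vehicle. MIR554, in TUFT1, ranked 3113 with osimertinib and 791 with vehicle. MIR4505 ranked 2330 with osimertinib and 1818 with vehicle, and MIR6747, in the elongation factor gene EEF1G, ranked 3359 with osimertinib and 4240 with vehicle. Of the 15 genes in both lists 14 had overlapping regions, though for MIR2278, MIR1205, MIR1293, MIR365A and MIR4435-2HG the strongest region of a list was not among those that overlapped. For MIR3128, in the stress response gene NFE2L2, the H3K4me1 regions of the lists lay more than 3 kb apart.

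**Figure D4:**
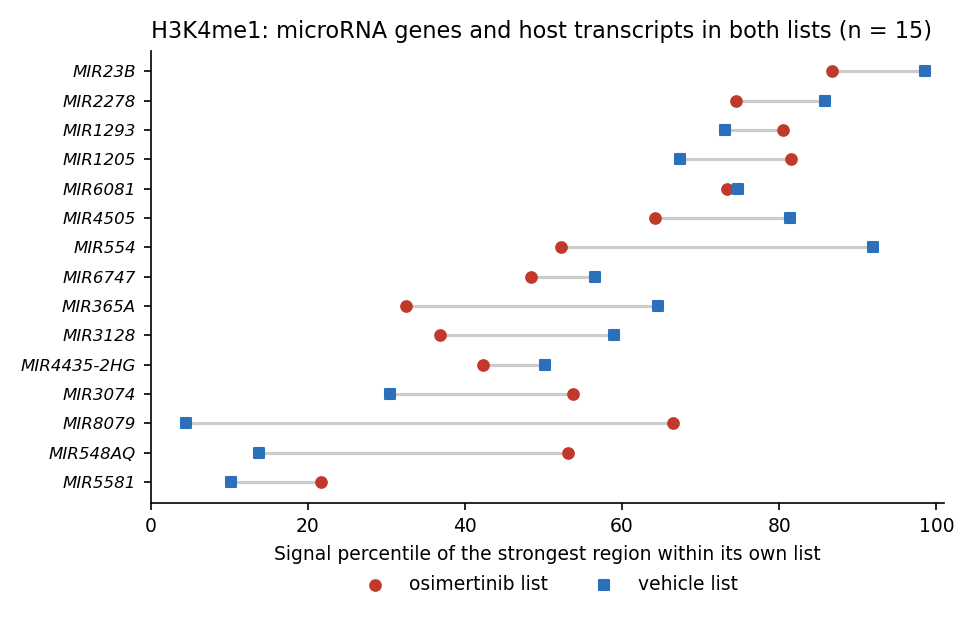
Signal percentile of the strongest H3K4me1 region of each of the 15 genes in both lists, within the osimertinib list (red circles) and within the vehicle list (blue squares). MIR23B is at percentile 86.7 with osimertinib and 98.6 with vehicle, the highest of the genes in both.

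Of the 50 H3K4me1 genes in the vehicle list only, 45 had no osimertinib region within 3 kb, 4 had one within 3 kb and 1 overlapped one. Over the 2150 promoter genes of that list only, 6.47% had an osimertinib region within 3 kb, so most lacked one as well. MIR4669, in RXRA, the nuclear receptor that pairs with PPAR, LXR and retinoic acid receptors, ranked 173 with vehicle (signal 14.1, chr9:134378356-134380355). An osimertinib region assigned to RXRA at rank 303 lay 2011 bp from it. MIR4252, in the actin-bundling gene ESPN, had 3 vehicle regions with a best rank of 349 (signal 10.6), and none with osimertinib within 3 kb. MIR326, in the beta-arrestin gene ARRB1, had 2 vehicle regions, at ranks 458 (signal 9.41, chr11:75337181-75339180) and 1881, and again none with osimertinib.

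MIR138-2 and MIR4648, which lies in the Notch pathway gene LFNG, also had 2 vehicle H3K4me1 regions each and no osimertinib region within 3 kb. The best ranks were 688 for MIR138-2 and 873 for MIR4648. The host of let-7b, MIRLET7BHG, ranked 3135 and MIRLET7B ranked 5249, and MIR26A1 and MIR26B, which share a seed and lie in the phosphatase genes CTDSPL and CTDSP1, had the ranks 8530 for MIR26A1 and 6123 for MIR26B. MIR23A ranked 4531 and MIR193B ranked 9345. All of these were H3K4me1 members with vehicle that had no osimertinib region within 3 kb. MIR205HG was in the vehicle H3K4me1 list at rank 4616, and an osimertinib region of the same gene that did not count as a promoter region lay 1690 bp away at rank 2740.

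Of the 16 H3K4me1 genes in the osimertinib list only, 13 had no vehicle region within 3 kb. Of the 564 promoter genes of that list only, 13.1% had one. MIR4521 was the highest of the 16, at rank 1016 (signal 4.39, chr17:8186558-8188557), and it overlapped by 347 bp a vehicle region assigned to AC129492.7 at rank 466. MIR584, in SH3TC2, ranked 2520 and lay 968 bp from a vehicle region of SH3TC2. MIR4435-1 ranked 3475, MIR4668, in the glucosylceramide synthase gene UGCG, ranked 3577, and MIR1207, in PVT1, ranked 4211. None of these last 3 had a vehicle region within 3 kb. Lower in the list were MIR31 at rank 5739, over the hairpin of miR-31 inside MIR31HG, MIR944 in TP63 at rank 5061 and MIR103A2 in the coenzyme A gene PANK2 at rank 5269.

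KDM1A regions at microRNA genes were few and did not coincide between treatments. No KDM1A member of either list had a region of the other treatment within 3 kb. Among promoter genes named in 1 list only, 3.13% of the 1054 with osimertinib and 2.0% of the 599 with vehicle had one. That count leaves out genes named in both lists. Among all promoter regions assigned to other genes, the shares were 8.71% with osimertinib and 13.01% with vehicle. The 95% intervals of the members reached 23.2% with osimertinib and 30.8% with vehicle, so they include these shares. MIR3064, in DDX5, the RNA helicase that helps Drosha cut hairpins, ranked 16 of 8882 with osimertinib (signal 6.99, chr17:64498972-64500971) and covered the annotated start of the microRNA. The next members with osimertinib were MIR5702 at rank 1690, MIR489, in the calcitonin receptor gene CALCR, at rank 2512, MIR4439, in DOCK10, at rank 2759 and MIR1343, in PDHX, a gene of the pyruvate dehydrogenase complex, at rank 3669. The signals of those 4 were between 1.20 and 1.44. With vehicle the highest were MIR216B at rank 935 of 4731 (signal 1.18), MIR513B at rank 999, MIR548AG2 at rank 1124, MIR4637, in the pyrophosphate transporter gene ANKH, at rank 1324 and MIR646HG at rank 2242.

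A cluster on the X chromosome held KDM1A members of both lists at different hairpins. MIR513C ranked 6777 and MIR514A2 ranked 6054 with osimertinib, and MIR513B ranked 999 with vehicle. MIR514A2 was also an H3K9me3 member with vehicle, at rank 2140. On chromosome 5, MIR579 ranked 5219 with osimertinib, 235 bp from a region of its host ZFR at rank 5613, and MIR4637 was in the vehicle list; both lie in the first 50 Mb of that chromosome, and without them 13 of 22 genes were in the osimertinib list. None of the 24 KDM1A members overlapped a region of H3K4me1, H3K4me3 or H3K9me3 at the same treatment. Such overlaps were not counted for the other KDM1A promoter regions, so whether the members differ from them is not known.

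H3K9me3 members with osimertinib lay on chromosomes 7, 9 and 19, 2 on each. Of the 5 with vehicle 3 lay on chromosome 19. The chromosomes of the other H3K9me3 regions were not counted, so whether the members differ from them is not known. A region of the other treatment lay within 3 kb of 1 of the 6 genes in the osimertinib list only, against 15.1% of 292 promoter genes, and of 1 of the 4 in the vehicle list only, against 13.4% of 231. MIR643, in the zinc finger gene ZNF766, had 2 vehicle regions, at ranks 521 (signal 3.96, chr19:52281372-52283371) and 1202. An osimertinib region assigned to ZNF766 at rank 115 lay 1683 bp from the weaker of them, and a further osimertinib region that bore the name MIR643 but was no promoter region lay 1813 bp from the stronger, at rank 159. H3K4me3 was listed at MIR643 with both treatments, at rank 9155 with osimertinib and 9368 with vehicle. MIR643 was thus the 1 gene with both H3K4me3 and H3K9me3 promoter regions. The highest member with osimertinib was MIR6801, in the phosphatase subunit gene PPP2R1A, at rank 362 of 2073 (signal 1.88).

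The primate cluster C19MC on chromosome 19, which is expressed in placenta, had H3K9me3 members at both treatments. MIR526B ranked 854 with osimertinib (chr19:53692725-53694724) and MIR521-2 ranked 2363 of 2749 with vehicle (chr19:53715038-53717037). By position 8 hairpins of the cluster had an H3K9me3 region within 3 kb with osimertinib only and 3 with vehicle only, of 50 genes in the list, which also held the neighbouring miR-371 to miR-373 genes, and 0 had any H3K4me3 or H3K4me1 region. Those 8 and 3 rested on 2 osimertinib regions and 1 vehicle region. Over all 1912 RefSeq microRNA genes, 17 had an H3K9me3 region within 3 kb with osimertinib only and 9 with vehicle only. Within 3 kb in either list, 373 of the 1912 had H3K4me3 and 175 had H3K4me1. The remaining osimertinib members were MIR4283-1 at rank 1338, MIR4283-2 at rank 1445, MIR1299 at rank 1454 and MIR4477A at rank 1797, and the remaining vehicle member was MIR4445 at rank 1880. MIR4283-1 and MIR4283-2 make the same mature microRNA, and reads at such near-identical copies could be placed at either.

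Read by family, the miR-200 and miR-205 genes and part of the miR-17-92 genes had H3K4me3 within 3 kb at both treatments. These families were listed with earlier results of these data known. All 7 genes of the miR-200 and miR-205 list, and 10 of the 16 in the list of miR-17-92 and related clusters, had an H3K4me3 region within 3 kb in both lists. The 7 lie at 3 loci and the 10 at 2 loci, MIR17HG and MCM7, so neighbours share their regions, and MIR429 counts through the vehicle region 2945 bp away. By name the counts were 3 in both and 2 in the osimertinib list only for miR-200 and miR-205, and 2 in both for miR-17-92. Of 16 genes tied to lung cancer and EGFR signalling, 6 had H3K4me3 within 3 kb in both lists, and MIR7-1 with osimertinib only. The 6 were MIR21, MIR31HG, MIR210 with its host MIR210HG, and MIR22 with its host MIR22HG, so neighbours share regions here too. The miR-31 hairpin itself had no H3K4me3 region within 3 kb. Of 12 let-7 genes 2 had it with osimertinib only, 1, MIRLET7E, with vehicle only, and 0 in both. Unlike the lists above, the let-7 list holds no host transcript. MIRLET7BHG, the host of let-7b, had overlapping H3K4me3 regions in both lists, at rank 3546 with osimertinib and 5443 with vehicle. MIRLET7E also had H3K9me3 regions within 3 kb with osimertinib only, assigned to SPACA6 and up to rank 37 of 2073. Of all 1912 RefSeq microRNA genes, a count that holds no host transcripts, 227 or 11.9% had H3K4me3 within 3 kb in both lists.

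Member regions were also counted for microRNA genes known for lipid or PKM targets, with 10 genes in each list. Of the lipid genes 1 had a member region, and of the PKM genes 2 had one. In all, member regions named 186 microRNA genes, where RefSeq holds 1912. MIR27A was the 1 lipid gene with a member region, and by position MIR27A and MIR378A had H3K4me3 in both lists and MIR27B with osimertinib only. Over all 1912 RefSeq microRNA genes, 11.9% had H3K4me3 within 3 kb in both lists, and 62 genes had it with osimertinib only. MIR33B, which lies in SREBF1 and restrains cholesterol export, had no member region, but its hairpin was covered by a vehicle H3K4me1 region assigned to SREBF1 at rank 3089. Of 10 genes tied to PKM or its splicing, MIR326 and MIR124-3 (rank 6353) had H3K4me1 with vehicle only, and 0 had H3K4me3. Over all 1912 genes, 120 had H3K4me1 within 3 kb with vehicle only, and 373 had H3K4me3 in either list. Of 9 genes linked to p53, MIR34AHG had a member region, in both H3K4me3 lists.

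MicroRNA genes and host transcripts were also sorted by the targets of their promoter regions. All promoter genes were not sorted in this way, so these counts have no background. Of the 197 genes, 19 had both H3K4me3 and H3K4me1 promoter regions, 1 had H3K4me3 and H3K9me3 and 1 had KDM1A and H3K9me3, and none had 3 targets. The remainder had 1 target each, with 83 genes for H3K4me3, 62 for H3K4me1, 23 for KDM1A and 8 for H3K9me3. Among the genes with both H3K4 marks, MIR23B had H3K4me1 at both treatments and H3K4me3 with osimertinib only. By name, MIR6805 had H3K4me3 with osimertinib and H3K4me1 with vehicle, and MIR4521 had H3K4me1 with osimertinib and H3K4me3 with vehicle. The MIR6805 H3K4me3 region overlapped by 11 bp a vehicle H3K4me3 region assigned to RPL28. The MIR4521 H3K4me1 region overlapped by 347 bp a vehicle H3K4me1 region assigned to AC129492.7. Their vehicle regions had no osimertinib region of the same target within 3 kb.

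The share of regions that covered a start was set beside that of the other promoter regions of the same list, without a test. With osimertinib 45.2% of 93 members (34.8% to 55.8%) spanned the start they were assigned to, against 67.3% of other promoter regions, and with vehicle 52.4% of 63 (39.4% to 65.1%), against 73.8%. For H3K4me1 the shares were 22.9% with osimertinib, against 33.8%, and 30.9% with vehicle, against 46.9%. For KDM1A they were 35.7% with osimertinib, against 30.9%, and 10.0% with vehicle, against 31.5%, and for H3K9me3 33.3% with osimertinib, against 50.4%, and 60.0% with vehicle, against 35.4%, each over 14 members or fewer. In their own list, 38 of the 93 osimertinib and 28 of the 63 vehicle H3K4me3 members had a region of another gene within 3 kb. Some of those neighbours were members too, such as MIR429 and MIR200B with osimertinib. The assigned microRNA gene or host transcript overlapped another RefSeq gene in 71 of the 93 osimertinib and 48 of the 63 vehicle H3K4me3 members. For H3K4me1 it did so in 32 of the 35 osimertinib and 62 of the 81 vehicle members. Neither nearby regions nor overlapping genes were counted for other promoter regions.

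In signal the H3K4me3 members spread from percentile 0.572 to 99.6 with osimertinib and from 3.01 to 99.5 with vehicle. The highest H3K4me1 members stood at 86.7 with osimertinib and 98.6 with vehicle, the highest KDM1A members at 99.8 with osimertinib and 80.2 with vehicle, and the highest H3K9me3 members at 82.5 with osimertinib and 81.0 with vehicle. The median percentile of H3K4me3 members was 51.2 with osimertinib, where that of other promoter regions was 58.3, and 49.2 with vehicle, where it was 53.6. For H3K4me1 it was 45.1 with osimertinib, against 48.5, and 50.2 with vehicle, against 50.5. KDM1A members had medians of 32.4 with osimertinib, against 51.7, and 39.5 with vehicle, against 45.3, and H3K9me3 members 32.9 with osimertinib, against 66.6, and 31.6 with vehicle, against 66.5. The members of KDM1A and H3K9me3 thus lay in the lower part of their lists at the median, with 14 regions or fewer in each.

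**Figure D5:**
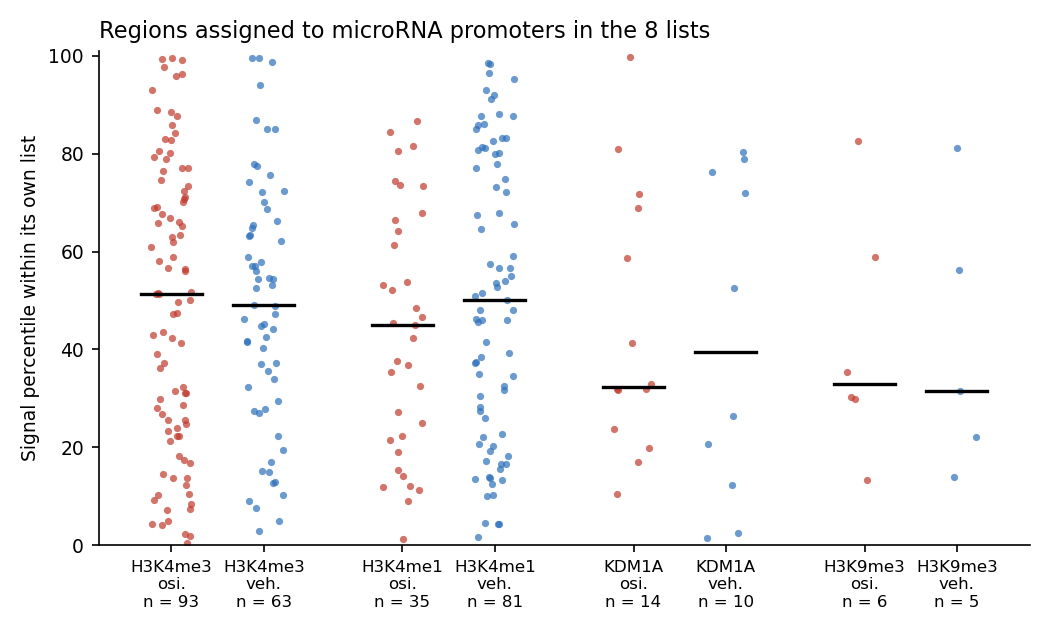
Signal percentile of all 307 regions within their own list, by target, with osimertinib (red) and vehicle (blue); black lines are medians and n is the number of regions. The H3K4me3 points run over the whole range, with medians of 51.2 with osimertinib and 49.2 with vehicle, and 1 KDM1A point with osimertinib, MIR3064, lies at 99.8.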

How the data were processed

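Regions of 8 libraries were analysed, 1 per target and treatment, grouped by the sample titles and treatments. The 6 RNA samples and 2 IgG samples were not analysed here. Reads were placed on GRCh38 (hg38) and the tools Bowtie2 2.3.4, HISAT2 and featureCounts are named without a role, per the submitters' processing notes. How peaks were called and annotated is not given in the sources used here. Signal values, as deposited by the authors, are heights of unstated scale and only rank regions within a list. Another deposited column, in the other unit used, gives the signed distance in bp to the assigned start, per the file headers. The authors gave region positions, annotation classes and gene names.

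Members were counted by gene and by position, with an overlap of at least 1 bp or a gap of at most 3 kb. Positions of microRNA genes and sequences came from RefSeq (GRCh38.p14). Overlap counts matched those of bedtools 2.31.1 and were tested on simulated data. Shares have Clopper-Pearson 95% intervals, and a count of 0 allows 3 genes of the total. Genes were named by a rule that took the 5 strongest members of each list, up to 8 in both lists and 5 in 1 list only per target, and the members of 8 gene families; others were chosen after their values were seen. The members and lists were chosen with earlier results of these data known, and 2 genes whose names match the pattern are not reported here. Alternatives, given in the closing section, concerned distance, assignment, overlap, list length and chromosome 5. Python 3.11.15, pandas 2.3.3, numpy 2.4.6, scipy 1.17.1 and matplotlib 3.10.9 were used.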

Additional observations from a re-analysis of the deposited data

How the results depend on the processing

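For each target 2 shares were followed: the osimertinib share of genes in 1 list only, and the share in both lists. Of 80 values under other settings 72 stayed within the 95% interval of the reported value. Some of the 72 could not move, since a share of 0 stays 0 where a setting only takes regions away. Without the start of chromosome 5 no H3K4me1 or H3K9me3 count changed. The H3K9me3 interval for the osimertinib share ran from 26.2% to 87.8% on 10 genes. The number that stayed is therefore no measure of how firm the shares are. In H3K4me3 the share in both lists was 49.5% where an overlap of at least 1 bp with any region of the other list counted as shared and 57.3% where a gap of up to 1 kb did. With RefSeq microRNA genes placed by position, which was chosen after seeing the data, it was 60.9%, and the osimertinib share of genes in 1 list only was 42.5%. With equal numbers of the strongest regions, which drops the weaker regions of the longer list, the osimertinib share was 39.2% for H3K4me1 and 33.3% for KDM1A. With every assigned region, promoter or not, the share in both lists was 34.3% for H3K4me1 and 21.6% for KDM1A. No paired analysis was possible because each target has 1 library per treatment, and for the same reason no replicate could be left out. Read depth is unknown, so a lost region may be one under the threshold, and 0 shared genes of 24 or of 10 sets only a wide limit.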

Other observations

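Regions outside promoters also carried microRNA gene names, and they enter none of the counts above by promoter. They outnumbered the promoter members for KDM1A, H3K4me1 and H3K9me3, and promoter regions of any gene were the smaller part of these lists as well. Promoter regions made up 1368 of 8882 KDM1A regions with osimertinib and 740 of 4731 with vehicle. For H3K4me1 they were 1871 of 6515 with osimertinib and 4297 of 9761 with vehicle. For H3K9me3 they were 724 of 2073 with osimertinib and 683 of 2749 with vehicle. Outside promoters, microRNA gene names stood on 134 KDM1A regions, on 65 genes, with osimertinib and on 72 regions, on 53 genes, with vehicle. Of these, 73 osimertinib and 39 vehicle regions lay in introns. For H3K4me1 there were 94 such regions on 51 genes with osimertinib and 120 on 74 genes with vehicle. For H3K4me3 there were 66 on 46 genes with osimertinib and 25 on 18 genes with vehicle, and MIR3143 had the most at both treatments, 6 with osimertinib and 3 with vehicle. MIR205HG had 5 further regions with osimertinib in the H3K4me3 list and 5 in the H3K4me1 list. For H3K9me3 there were 14 on 9 genes with osimertinib and 19 on 14 genes with vehicle, led by MIR1263 with 4 osimertinib and 5 vehicle regions.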
